A study of Apis mellifera with 36 samples.

Results

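Of the 12365 honeybee genes with deposited counts, 923 were long non-coding RNA (lncRNA) genes that stood apart from every other annotated gene. A gene was taken when every transcript under it in the deposited annotation was of type ncRNA and when its span overlapped no other gene on either strand. The annotation held 13592 genes, of which 2434 were lncRNA genes and 951 of those overlapped no other gene. Another 1138 lncRNA genes of the count table overlapped a neighbour.

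The RNA came from single embryos of Apis mellifera, 36 in all, laid by 2 mated queens and taken at 24, 48 and 72 h after egg laying (AEL). At each time 3 female (worker) and 3 male (drone) embryos were sequenced for each queen, so that 6 embryos stood for each sex and time. Females of this species develop from fertilized, diploid eggs and males from unfertilized, haploid eggs, and sex was assigned from the type of frame in which the egg was laid. The labels put the embryos of each queen in a batch of their own, so queen and batch cannot be told apart, and they give a laying window of 2 h where the methods give 3 h.

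As background, long non-coding RNAs are transcripts that carry no long open reading frame and are often spliced, capped and polyadenylated like mRNAs. Some act in the nucleus on chromatin or on RNA processing, some act at the gene beside which they are made, and many have no known role. They tend to be expressed at lower levels and in fewer tissues and stages than protein-coding genes. In early insect embryos the first RNAs are supplied by the mother, and transcription from the embryo's own genome starts later while the maternal RNAs are cleared. For intergenic lncRNAs the counts are easier to assign than for lncRNAs inside other genes, because no annotated neighbour shares their bases.

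The 923 genes were short and had few exons. The median span was 2369 bases and the median exonic length 1202 bases, against an exonic length of 2086 bases in protein-coding genes. The median number of exons was 3, against 6 in protein-coding genes, and only Ks-1 was a single exon. They lay on all 16 linkage groups (737 genes) and on sequence not placed on a linkage group (186 genes). Linkage group 6 carried 92 of them, which was 11.9% of its listed genes, linkage group 16 carried 44 (11.5%) and linkage group 15 carried 26 (3.80%). On unplaced sequence they were 16.3% of the listed genes. At least 1 kb separated 600 of the 923 from every other gene, or they were the sole gene of their sequence, as were 83.

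Names were rare among them. The product line read uncharacterized for 916 of the 923. Of the others, 2 were the nuclear non-coding RNAs Ks-1 and Kakusei, and 5 had the product name of a protein, namely LOC727210 (a mitochondrial single-stranded DNA-binding protein), LOC100578473 (a FAM177A1-like protein), LOC100577405 (an S phase cyclin A-associated protein), LOC100576378 (ribonuclease P subunit p30) and LOC100578681 (obscurin). By gene number, 349 of the 923 were matched in the table of the later assembly Amel_HAv3.1, where 330 were lncRNA, 18 protein-coding and 1 a pseudogene. The class used here is that of the older annotation.

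The counts of an embryo summed to between 1195774 and 12808580 over the 12365 genes, with the lowest totals, 1195774 to 2008560, in 72 h males. Counts were scaled by the TMM method of edgeR, and levels below are normalised CPM (counts scaled to a common library total) unless RPKM is named. The scaling bears on the males in particular, since the listed genes held 79.3% ± 1.97 (SD, n = 6) of the total behind the authors' RPKM in 24 h females but 25.96% ± 4.82 (SD, n = 6) of it in males of 72 h. With that total in place of TMM the median log2 difference of all genes between the sexes at 72 h went from 0.41 to 2.97. The 20 embryonic patterning genes found in the table summed to 444 to 746 CPM in 24 h females, 2480 to 3025 CPM in 48 h females and 541 to 900 CPM in 48 h males. The 13 adult gland, fat body and immune genes found summed to 11.2 to 47.1 CPM in every group. Among the 48 h males, embryo 6 of queen 1 stood apart, with 1.25% of its counts on the 923 genes against 2.17% to 3.91% in the other 5. The embryo numbers in the labels do not pair embryos, and p-values measure the spread between embryos, as far as the 2 queens represent it.

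More of the intergenic lncRNAs were detected in female than in male embryos at 48 and 72 h, and as many in both sexes at 24 h. A gene counts as detected here at an RPKM over 0.1. At 24 h AEL 44.6% ± 0.563 (SD, n = 6) of the 923 were detected in females and 44.6% ± 0.903 (SD, n = 6) in males. By 48 h the share was 64.6% ± 2.16 (SD, n = 6) in females against 40.6% ± 1.94 (SD, n = 6) in males, and at 72 h it was 71.7% ± 1.76 (SD, n = 6) and 40.5% ± 1.16 (SD, n = 6). At both later times every female embryo lay above every male embryo. Two-sided exact permutation tests of 6 against 6 embryos gave p = 1 at 24 h and p = 0.00216 at 48 h and at 72 h, the smallest value that this design allows (adjusted p = 0.00325 over 6 exact tests). Within a queen the females were above the males by 23.1 and 24.9 percentage points at 48 h and by 30.2 and 32.2 at 72 h, where 3 against 3 embryos cannot give a p below 0.1. The gap was not particular to intergenic genes. Of the lncRNA genes that overlapped a neighbour, a mean of 61.7% was detected in 48 h females and 36.5% in 48 h males. At 72 h these means were 66.1% in females and 33.6% in males, and at 24 h 42.7% and 41.7%.

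Depth differed between the sexes, so detection was also counted after each embryo was thinned to the smallest total, with at least 1 count. The share was then 36.2% ± 0.819 (SD, n = 6) in 24 h females against 36.9% ± 1.199 (SD, n = 6) in 24 h males, 52.1% ± 1.58 (SD, n = 6) and 36.0% ± 1.38 (SD, n = 6) at 48 h, and 59.7% ± 1.22 (SD, n = 6) and 43.7% ± 2.32 (SD, n = 6) at 72 h. Females were again all above males at 48 h and at 72 h (exact permutation test, p = 0.00216 at each), and the gap at 72 h was 16.1 percentage points in place of 31.2. The males had a larger share at 72 h than at 48 h on thinned counts and not by RPKM, so no order of the male times is read from either. On the same thinned counts 84.0% ± 0.441 (SD, n = 6) of protein-coding genes were found in 48 h females against 75.9% ± 0.672 (SD, n = 6) in 48 h males. For lncRNA genes that overlapped a neighbour the thinned means were 52.4% in 48 h females and 33.8% in 48 h males. At 72 h they were 55.6% in females and 38.8% in males, so thinning left a gap in these genes too. In whole embryos fewer cells that make an RNA and less RNA in each cell cannot be told apart.

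**Figure D1:**
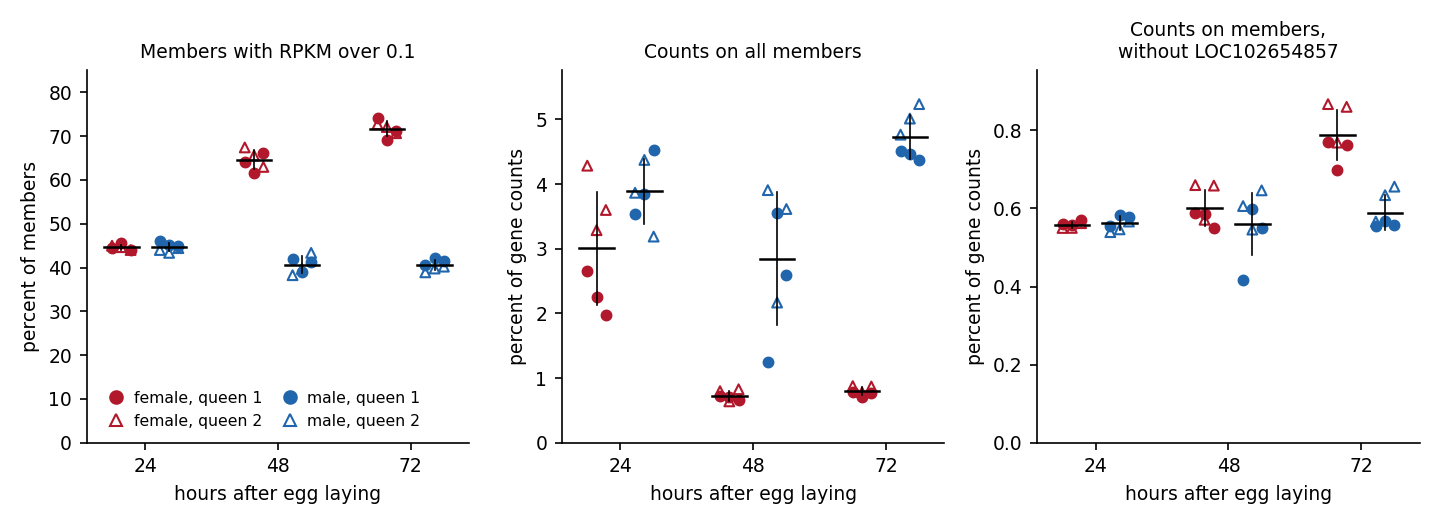
Percent of the 923 intergenic lncRNA genes with an RPKM over 0.1 (left), percent of an embryo's gene counts on them (middle) and the same without LOC102654857 (right), by hours after egg laying. Each point is 1 embryo (filled circles queen 1, open triangles queen 2, red female, blue male), horizontal lines are means and vertical lines 1 SD over 6 embryos; detection separates the sexes from 48 h, and the share of counts is higher in males at 48 and 72 h only while LOC102654857 is counted.

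In RPKM the median level of the 923 genes also differed between the sexes after 24 h. Averaged over 6 embryos, their median RPKM was 0.065 in 24 h females, 0.277 in 48 h females and 0.548 in 72 h females. In males it was 0.065, 0.0583 and 0.085. Protein-coding genes, for comparison, had medians of 6.30, 5.56 and 7.93 in females and 6.05, 2.80 and 0.882 in males. An RPKM over 10 was reached by 71 of the lncRNA genes in 24 h females, by 73 in 72 h females and by 20 in 72 h males. The scale bears on these values, since the listed genes held 66.1% of the total behind RPKM in 72 h females and 25.96% in 72 h males. Over the members with enough counts to be tested, the median log2 difference between the sexes at 72 h was 0.70 with TMM. It was 3.22 with that total.

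Few of these genes were present throughout. All 923 had a count in some embryo, 641 reached 10 counts in at least 1 embryo, and 138 had counts in all 36. The median gene had counts in 21 embryos. At 48 h, 57 of the 923 had counts in all 6 females and in no male, where 2.5% of all listed genes did, and at 72 h 81 had them, where 3.59% of all did. The reverse, counts in all 6 males and no female, was seen for 2 genes at 48 h (0.0566% of all) and for 3 at 72 h (0.0485% of all). After thinning, 54 genes at 48 h and 34 at 72 h were of the female kind (2.71% and 1.97% of all), and 9 and 12 of the male kind (0.210% and 0.372% of all).

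The summed level of the class was higher in males at 48 and 72 h, and 1 gene decided it. At 24 h 3.01% ± 0.872 (SD, n = 6) of the gene counts of a female and 3.89% ± 0.502 (SD, n = 6) of those of a male fell on the 923 genes. At 48 h the share was 0.728% ± 0.0749 (SD, n = 6) in females against 2.85% ± 1.03 (SD, n = 6) in males, and at 72 h 0.800% ± 0.0631 (SD, n = 6) and 4.73% ± 0.343 (SD, n = 6). The sexes did not overlap at 48 h or at 72 h (two-sided exact permutation tests, p = 0.00216 each, adjusted p = 0.00325), and at 24 h they did (p = 0.0606, adjusted p = 0.0727). At 24 h the females minus the males gave -1.67 percentage points in queen 1, where every male was above every female, and -0.0851 in queen 2, where they were mixed. Without LOC102654857 the shares were 0.602% ± 0.0462 (SD, n = 6) in 48 h females against 0.560% ± 0.0796 (SD, n = 6) in 48 h males, and 0.787% ± 0.0645 (SD, n = 6) against 0.589% ± 0.0438 (SD, n = 6) at 72 h. The other 922 genes together thus took a larger share in females at 72 h (exact permutation test, p = 0.00216) and overlapped between the sexes at 48 h (p = 0.314).

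LOC102654857 had the most counts of the class. It lies on linkage group 5 of the Amel_4.5 genome, minus strand, from 5272098 to 5375412, with 4 exons that add up to 45820 bases, the longest exonic length of the 923. Its nearest protein-coding gene, IGFn3-9, starts 135 bases away in the opposite direction. Among 24 h females it had 13052 CPM in the lowest embryo, a median of 22752 and 36982 in the highest, and among 24 h males 25689, 31600 and 38510. At 48 h the females had 575, 1056 and 1417 CPM and the males 10008, 30433 and 41528. At 72 h the values were 67.6, 75.9 and 121 CPM in females and 58336, 63751 and 76930 CPM in males. The sexes overlapped at 24 h and were far apart at both later times, and the females went down at each step. In the joint edgeR fit the log2 difference between females and males was -4.78 (SE 0.27, adjusted p = 1.95e-19) at 48 h and -9.57 (SE 0.34, adjusted p = 1.59e-26) at 72 h. In males alone the step from 48 to 72 h depended on the scale. It was a rise of 1.24 on the log2 scale under TMM (SE 0.23, adjusted p = 2.71e-05) and was not called with the total behind RPKM (-0.13). The RPKM of the males was 431 to 656 at 24 h, 122 to 339 at 48 h and 188 to 277 at 72 h.

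Of the 923 genes, 472 passed the filter on low counts and entered the fit of 9575 genes. The filter keeps a gene that is well counted in 1 sex at 1 time, so the 472 favour genes that differ between groups and do not stand for all 923. It kept 8506 of the 10147 protein-coding genes, so it bears more on members than on all genes. Every share of member calls set beside all genes below carries this limit, and its size was not tested. A call needed an adjusted p under 0.05 (edgeR quasi-likelihood test, Benjamini-Hochberg over all genes tested) together with a log2 fold change of more than 1 in either direction.

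At 24 h the sexes were nearly alike in these genes. No intergenic lncRNA was called higher in females by edgeR (0.0104% of all genes were), 20 had an unadjusted p under 0.05 in that direction, and DESeq2 called 2. Only 1 was called higher in males (0.0836% of all genes were), with 35 at an unadjusted p under 0.05. That gene was LOC100577216, of 6 exons on unplaced sequence, where the females had 17.8 CPM in the lowest embryo, a median of 22.6 and 23.9 in the highest. The males had 31.0, 46.6 and 78.8 CPM, so that every male was above every female. Its log2 difference between females and males was -1.21 (SE 0.20, adjusted p = 0.00131) over both queens, and it was not called in queen 2 alone (log2 difference -1.30). It was lower again in females at 48 h (log2 difference -1.47, SE 0.22, adjusted p = 1.45e-07).

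By 48 h most of the tested genes differed between the sexes, in both directions. Of the 472, 194 were higher in females, or 41.1%, where 33.7% of all genes were, and 159 were higher in males, or 33.7%, where 27.6% of all genes were. Among the 539 tested lncRNA genes that overlapped a neighbour, 46.4% were higher in females and 33.2% in males, so the excess over all genes was not particular to intergenic ones. The median log2 difference between females and males was 0.34 over the 472 and 0.18 over all genes. Members higher in females had been scarce at 24 h, with a median RPKM of 0.0583 over the 12 embryos of that time, and those higher in males had been abundant, with a median of 4.21. The filter and the calls favour this contrast, because a member scarce at 24 h was tested only if well counted later. It is thus no independent result. In queen 1 alone 176 and 147 were called, and in queen 2 alone 181 and 154. With the total behind RPKM as the scale, 234 were higher in females and 119 in males, which moves the female share of the calls from 55.0% to 66.3%.

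Among the called members with at least 10 CPM and no overlap of the sexes, those with the largest female excess at 48 h had next to no counts in 48 h males and at 24 h. LOC102654015, with 2 exons on linkage group 10 (11864819 to 11868100), had 56.96 CPM in the lowest 48 h female, a median of 74.0 and 102.4 in the highest. The 6 males together had 2 counts, a ratio of 841 (95% counting interval 233 to 6942), and the 24 h females together 3 counts. At 72 h the females were back at 2.24 to 8.99 CPM, so that this RNA was highest in 48 h females among the 6 groups. The 72 h males had 0, 2.79 and 13.6 CPM (lowest, median and highest), on at most 10 counts per embryo. The sexes were not called apart at that time (log2 difference 0.76).

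LOC100577906, of 4 exons on unplaced sequence, had 6.72 CPM in the lowest 48 h female, a median of 11.99 and 15.4 in the highest. No count fell on it in any 24 h embryo or in any male. Its excess in 48 h females over 48 h males was at least 13.5-fold, taking 3 counts per library as the floor. LOC102653844, also of 4 exons and unplaced, had 5.72, 11.4 and 13.1 CPM in 48 h females against no count in males of that time, a difference of at least 12.9-fold. Both genes were thus silent at this depth in 48 h males, where 0 counts allow up to 0.824 CPM in the shallowest embryo.

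Under the same conditions, the members with the largest male excess at 48 h were present in both sexes at 24 h and nearly lost from females. LOC100576535, of 2 exons on unplaced sequence, had 31.99, 32.8 and 37.1 CPM (lowest, median and highest) in 24 h females and 35.6, 44.5 and 52.8 CPM in 24 h males. At 48 h it had 0, 0.125 and 0.260 CPM in females and 36.6, 58.5 and 66.9 CPM in males, a log2 difference of -8.77 (SE 0.29, adjusted p = 7.58e-27). The sexes were wide apart at 48 h and overlapped at 24 h. LOC102653970, of 2 exons on linkage group 11 (12052603 to 12060639), had 36.5, 51.9 and 53.5 CPM in 24 h females and 0, 0.740 and 1.05 CPM in 48 h females. Its 48 h males had 78.6, 146 and 188 CPM, a log2 difference of -7.65 (SE 0.27, adjusted p = 5.13e-26). LOC102656795, of 3 exons on linkage group 13 (606538 to 613692), had 26.6 to 34.7 CPM in 24 h females, 0 to 0.294 in 48 h females and 9.94 to 33.6 in 48 h males, with a log2 difference of -7.43 (SE 0.40, adjusted p = 8.02e-19).

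**Figure D2:**
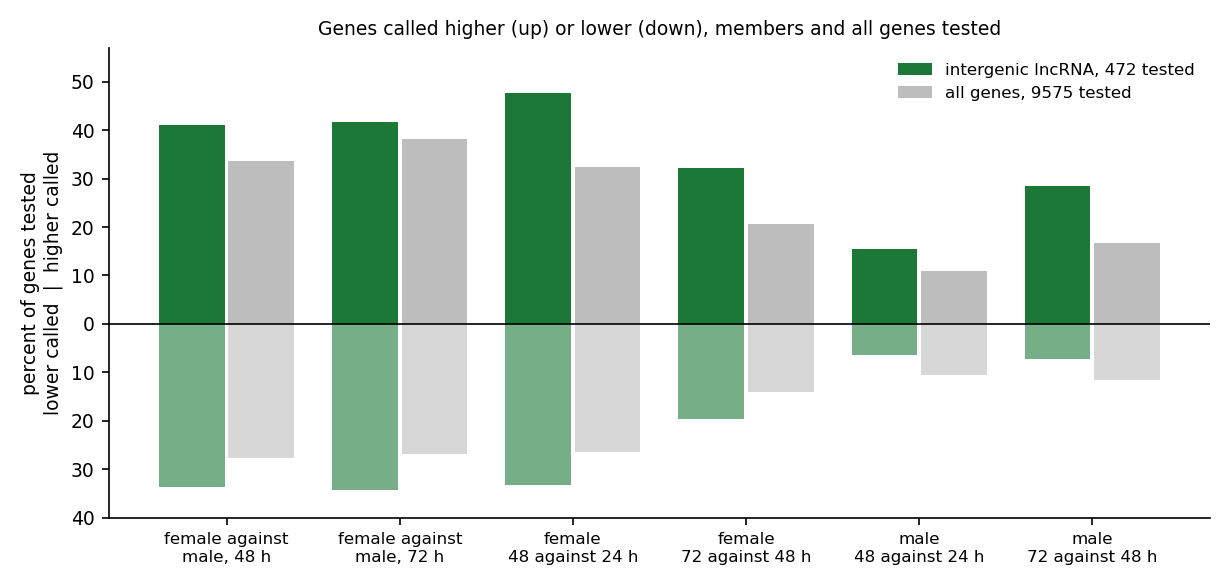
Percent of genes called higher (above 0) and lower (below 0) in 6 comparisons, as bars for the 472 tested intergenic lncRNA genes (green) and for all 9575 tested genes (grey). The bars of the lncRNA genes are the longer ones in both directions between the sexes and over time in females, and in males they are longer above 0 and shorter below 0, a split that depends on the scaling. The filter on low counts kept 472 of the 923 lncRNA genes and bears on these contrasts.

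At 72 h the counts of calls were close to those at 48 h. Of the 472, 197 were higher in females, or 41.7% (38.2% of all genes), and 162 were higher in males, or 34.3% (26.8% of all genes). Among the tested lncRNA genes that overlapped a neighbour, 41.6% were higher in females and 33.0% in males. The median log2 difference was 0.70 over the 472 and 0.41 over all genes. The female share of the calls was 54.9% with TMM, 70.4% with total counts and 84.5% with the total behind RPKM, under which 327 were higher in females and 60 in males.

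LOC102655797 was the clearest case of a late female gene. It has 4 exons and lies on linkage group 10 (6057263 to 6058476), and its nearest protein-coding gene is Toll-6, a member of the Toll receptor family. The 72 h females had 4.72 CPM in the lowest embryo, a median of 56.3 and 81.2 in the highest. No 48 h embryo and no 72 h male had a count, so its level in 72 h females exceeded that in 72 h males at least 16.1-fold and that in 48 h females at least 123-fold. Depth sets the first of these bounds, because a count of 0 in the shallowest 72 h male allows up to 3.11 CPM.

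The other 2 members named for a female excess at 72 h were already high in 48 h females. LOC102654884, of 2 exons and unplaced, had 16.1, 23.1 and 25.9 CPM in 48 h females and 15.1, 25.5 and 27.6 CPM in 72 h females. It had 1 count over the 6 males of 48 h and none at 72 h, where the difference was at least 7.52-fold. LOC100578884, of 2 exons and unplaced, had 17.4 to 41.2 CPM in 48 h females, 13.4 to 25.8 CPM in 72 h females and at least a 5.80-fold excess over 72 h males, which had no count.

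In 72 h males LOC102653970 reached 192, 283 and 339 CPM (lowest, median and highest), while the 72 h females had 0, 0.0462 and 0.197 CPM. The log2 difference was -11.62 (SE 0.35, adjusted p = 7.17e-29). LOC100576535 had 28.5, 36.0 and 55.5 CPM in 72 h males and 2 counts over the 6 females, a ratio of 1270 (95% counting interval 352 to 10488).

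The calls at 48 h and at 72 h come from different embryos. Of the tested members 135 were higher in females at both times, or 28.6%, where 25.01% of all genes were, and 122 were higher in males at both times, or 25.8%, where 18.7% of all genes were. Another 15 went from higher in females to higher in males, or 3.18% (1.21% of all genes), and 11 the other way, or 2.33% (1.51% of all genes). LOC102655708 was among those with the same direction throughout, on linkage group 4 (3618964 to 3620086), with its nearest protein-coding gene zw10, a kinetochore protein, 1544 bases away. It had 8.09, 11.4 and 12.4 CPM in 24 h females and 9.11, 11.4 and 13.3 in 24 h males, then 56.6, 78.7 and 94.3 CPM in 48 h females and 1.87, 4.05 and 6.01 in 48 h males. The sexes overlapped fully at 24 h and moved apart in opposite directions by 48 h, up in females (log2 change 2.82, SE 0.19, adjusted p = 5.64e-17) and down in males (log2 change -1.41, SE 0.23, adjusted p = 2.57e-06).

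**Figure D3:**
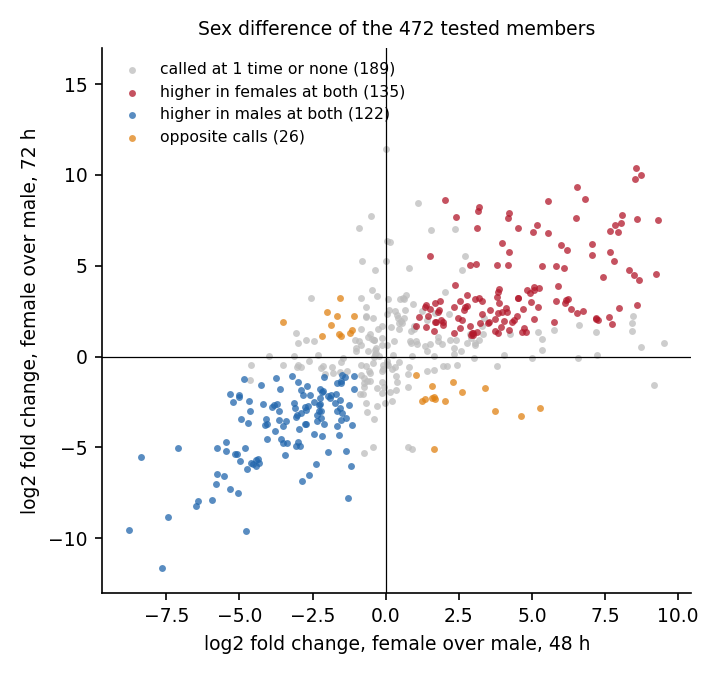
Log2 fold change of females over males at 48 h (horizontal axis) against 72 h (vertical axis) for the 472 tested intergenic lncRNA genes, 1 point each, coloured by the calls at both times. Most called points lie in the lower left and upper right, with 135 higher in females and 122 higher in males at both times, and 26 have opposite calls.

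In females the step from 24 to 48 h moved most of the tested members. Of the 472, 225 rose, or 47.7% (32.4% of all genes), and 157 fell, or 33.3% (26.5% of all genes), with a median log2 change of 0.79 against 0.14 over all genes. From 48 to 72 h, 152 rose, or 32.2% (20.7% of all genes), and 93 fell, or 19.7% (14% of all genes), with a median of 0.24 against -0.04. Both steps use the same 48 h females, and the 48 h females also enter the comparison of the sexes. Without the filter on low counts the first step gave 406 rises, and the total behind RPKM moved the share of rises in the second step from 62.0% to 74.7%.

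Joined over both steps, the most frequent course in females was a rise by 48 h with no fall after it. It was taken by 170 members, or 36.0% of those tested, against 25.6% of all genes. A further 55 members rose and then fell (11.7% against 6.73%), and 35 rose from 48 to 72 h only (7.42% against 5.82%). A fall with no rise was taken by 114 (24.2% against 21.8%) and a fall followed by a rise by 55 (11.7% against 8.89%). No call in either step was left for 43 members, or 9.11%, where 31.2% of all genes had none, a contrast on which the filter on low counts bears. Of the 194 members higher in females at 48 h, 187 had risen in females from 24 h, and of the 159 higher in males 139 had fallen in females while 32 had risen in males, comparisons that share the 48 h embryos. Under TMM, 77 of the 194 then rose in males from 48 to 72 h and 3 fell.

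LOC102654304 showed the rise that lasted. It has 2 exons and lies on linkage group 6 (4297888 to 4300305). No 24 h female had a count, the 48 h females had 26.05, 28.6 and 37.98 CPM and the 72 h females 63.2, 81.5 and 97.4 CPM (lowest, median and highest). The 3 female groups did not overlap, and the first step was a rise of at least 99.6-fold. From 48 to 72 h it rose again by 1.47 on the log2 scale (SE 0.20, adjusted p = 6.66e-08). Males had at most 3 counts in any embryo.

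LOC102655235 and LOC102656112 marked a peak and a late start in females. LOC102655235, with 4 exons over a long span on linkage group 2 (621273 to 727440), had no count at 24 h, 7.58, 9.73 and 13.3 CPM in 48 h females and 0, 0.361 and 1.42 CPM in 72 h females. Its fall from 48 to 72 h was -4.47 on the log2 scale (SE 0.48, adjusted p = 7.82e-09). In males it was called as a rise at this step, by 6.25 under TMM and by 4.18 with the total behind RPKM. The sexes were not called apart at 72 h (log2 difference -1.55). LOC102656112, with 4 exons on linkage group 16 (3271314 to 3277178), had 0, 0.0525 and 0.260 CPM in 48 h females and 11.9, 22.1 and 33.6 CPM in 72 h females, a log2 change of 7.71 (SE 0.44, adjusted p = 4.00e-17). It rose in males at this step too, by 5.53 under TMM and by 3.52 with the total behind RPKM, and was higher in females at 72 h (log2 difference 4.78). Its nearest protein-coding gene, LOC100578791, is the nearest one to 6 members and also rose at this step, to a mean of 13.8 CPM in 72 h females from 1 count over the 6 females of 48 h, a ratio of 549 (95% counting interval 98.6 to 21698).

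In males fewer of the tested members were called over time, and more of the calls were rises under TMM. From 24 to 48 h, 73 rose, or 15.5% (10.9% of all genes), and 30 fell, or 6.36% (10.4% of all genes). From 48 to 72 h, 134 rose, or 28.4% (16.7% of all genes), and 34 fell, or 7.20% (11.6% of all genes). The medians were 0.16 and 0.57 on the log2 scale, where those of all genes were 0.04 and -0.11. The scale decides this split, since rises made up 70.9% and 79.8% of the member calls with TMM, 44.4% and 64.0% with total counts and 19.3% and 22.2% with the total behind RPKM. Under that last scale the median of all genes moved by -0.79 and -1.51, so the males' rises are relative to the other listed genes. With TMM, 14.3% of the tested lncRNA genes that overlapped a neighbour rose and 7.79% fell by 48 h in males. After it 21.5% rose and 6.68% fell.

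Over both steps 245 members, or 51.9% of those tested, had no call in males, against 58.4% of all genes. A rise from 48 to 72 h only was the most frequent course, with 95 members (20.1% against 11.04%), followed by a rise by 48 h in 69 (14.6% against 9.98%) and a fall with no rise in 54 (11.4% against 19.1%). Of the 170 members that rose by 48 h and did not fall in females, 46 rose in males from 48 to 72 h only and 88 had no call in males.

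Among members that changed in males, LOC102653660 rose at both steps under TMM. It has 3 exons on linkage group 12 (7456684 to 7458299). The males had 4.53, 6.15 and 9.27 CPM at 24 h, 22.6, 45.2 and 53.8 CPM at 48 h and 89.9, 118 and 185 CPM at 72 h (lowest, median and highest), with no overlap between times in these units. The log2 changes were 2.79 (SE 0.20, adjusted p = 1.90e-14) and 1.54 (SE 0.19, adjusted p = 1.35e-08). With the total behind RPKM the first was still called (1.90) and the second was not (0.12), and its RPKM of 10.95 to 19.3 in 48 h males overlapped that of 14.1 to 19.4 in 72 h males. LOC100577428, with 5 exons on linkage group 13 (1645064 to 1684140), had 0.523 to 2.10 CPM in 48 h males and 8.48 to 25.8 CPM in 72 h males (log2 change 3.58, SE 0.43, adjusted p = 5.83e-09), and it rose in females at this step too (2.23, SE 0.34, adjusted p = 2.67e-07).

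Falls in males were fewer than rises under TMM, and more than rises with the total behind RPKM. LOC727450, on linkage group 5 (11746450 to 11747191) and 3379 bases from Mcm5, a subunit of the replicative helicase, had 46.8, 79.0 and 104 CPM in 48 h males and 13.6, 19.9 and 40.7 CPM in 72 h males. These groups did not overlap, and the log2 change was -1.77 (SE 0.21, adjusted p = 6.09e-09). LOC100576378, whose product name is that of a ribonuclease P subunit and which the later annotation lists as protein-coding, had 11.8 to 27.7 CPM in 48 h males and 0.987 to 3.56 CPM in 72 h males (log2 change -2.96, SE 0.28, adjusted p = 2.79e-11). LOC100578173, of 5 exons and unplaced, fell in males from 24 to 48 h (log2 change -1.24, SE 0.18, adjusted p = 3.99e-07), from 37.7 to 76.3 CPM down to 20.2 to 29.04 CPM, and was not called in queen 2 alone (-0.89).

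The interaction of sex and time asked whether the steps differed between the sexes. From 24 to 48 h it was called for 133 members with the more upward change in females, or 28.2% (29.3% of all genes), and for 151 with the more upward change in males, or 31.99% (26.5% of all genes). From 48 to 72 h the counts were 88, or 18.6% (23.3% of all genes), and 123, or 26.1% (20.5% of all genes). Under the total behind RPKM the last 2 counts were 202 and 44. Members with no count in 3 of the 4 groups that an interaction compares could not be called by it, so that LOC100577906, for example, had an adjusted p of 1 for the first interaction although its counts were confined to 48 and 72 h females.

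Both named non-coding RNAs were expressed in these embryos. Ks-1 is known as a nuclear RNA of Kenyon cells, the intrinsic neurons of the mushroom bodies in the honeybee brain. It lies on linkage group 1 (16670355 to 16687752). At 24 h it had 0 to 0.121 CPM in females and 0 to 0.386 CPM in males. The 48 h females had 78.3, 101 and 123 CPM and the 48 h males 0, 0.680 and 1.49 CPM (lowest, median and highest). The sexes were thus widely apart at 48 h, with a log2 difference of 7.27 (SE 0.40, adjusted p = 6.28e-20). The rise in females from 24 to 48 h was a ratio of 2089 (95% counting interval 715 to 10129), as 3 counts fell on it over the 6 females of 24 h. At 72 h the females had 18.1, 34.7 and 49.6 CPM and the males 1.97, 8.73 and 16.9 CPM, close to each other but without overlap (log2 difference 2.00, SE 0.34, adjusted p = 1.69e-06), after a fall in females (-1.56, SE 0.24, adjusted p = 4.46e-07) and a rise in males (3.70, SE 0.57, adjusted p = 8.18e-07).

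Kakusei is known as a nuclear RNA that is induced by neural activity in the brain of worker bees. It lies on linkage group 2 (13818655 to 13825760), with 2 exons. Females had 0.552, 0.952 and 1.45 CPM at 24 h, 3.15, 4.33 and 5.88 CPM at 48 h and 0.109, 0.246 and 1.42 CPM at 72 h. Males had 1.08, 1.40 and 1.66 CPM at 24 h, 6.95, 10.7 and 14.9 CPM at 48 h and 50.9, 87.1 and 170 CPM at 72 h. Its level rose in both sexes by 48 h, by 2.27 on the log2 scale in females (SE 0.34, adjusted p = 1.11e-07) and by 2.97 in males (SE 0.32, adjusted p = 4.47e-10). After that it fell in females (-3.39, SE 0.39, adjusted p = 8.92e-10) and rose in males (3.12, SE 0.29, adjusted p = 1.40e-11), and the interaction was -6.51 (SE 0.48, adjusted p = 1.00e-14). The counts behind the 72 h males were 66 to 125 per embryo. The nearest protein-coding gene of Kakusei is TpnI, which encodes troponin I of muscle, and it had at most 6 counts in any embryo and was not tested.

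**Figure D4:**
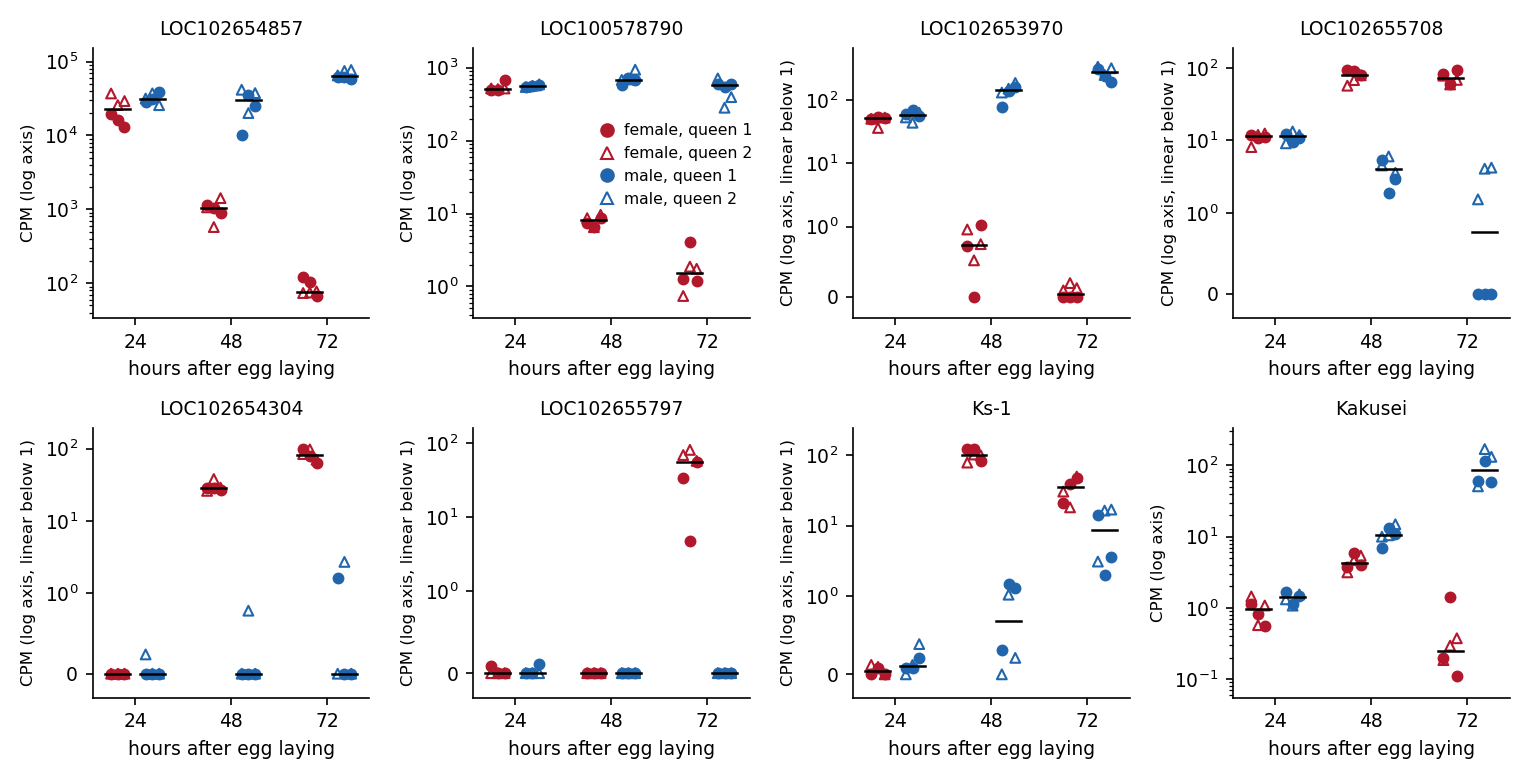
Normalised CPM of 8 intergenic lncRNA genes in each of the 36 embryos, by hours after egg laying, on log axes (linear below 1 where a gene had embryos at 0). Each point is 1 embryo (filled circles queen 1, open triangles queen 2, red female, blue male) and lines are medians of 6; LOC102654857, LOC100578790 and LOC102653970 drop in females after 24 h, LOC102654304, LOC102655797 and Ks-1 appear in females, and Kakusei climbs in males.

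The other 4 members of highest mean RPKM were abundant at 24 h in both sexes and took different courses in females. LOC100578790, of 3 exons and unplaced, had 490, 514 and 675 CPM in 24 h females, 6.47, 8.03 and 9.61 CPM at 48 h and 0.740, 1.51 and 4.01 CPM at 72 h. The males had 538 to 591, 586 to 939 and 283 to 713 CPM at the same times, so that the sexes were separated from 48 h (log2 difference -6.50, SE 0.23, adjusted p = 2.30e-26). LOC102655230, with 2 exons on linkage group 10 (7829605 to 7831463), fell in females from 228 to 285 CPM at 24 h to 108 to 137 CPM at 48 h (log2 change -1.03, SE 0.12, adjusted p = 3.11e-10). Its other steps were not called under TMM, with 61.0 to 72.1 CPM in 72 h females and 71.6 to 141 CPM in 72 h males, and neither were the sexes at any time. LOC102654033, unplaced, fell in females from 101 to 129 CPM at 24 h to 22.1 to 39.3 CPM at 48 h (log2 change -1.98, SE 0.19, adjusted p = 2.27e-12). LOC724490, on linkage group 6 (6641729 to 6642788), rose in males from 41.6 to 49.7 CPM at 24 h to 68.4 to 146 CPM at 48 h (log2 change 1.24, SE 0.15, adjusted p = 3.78e-09) and was not called between the sexes. With the total behind RPKM that rise was not called (0.40).

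Members called higher in each sex had the same median number of exons. At 48 h the median exonic length was 1646 bases in those higher in females and 1829 bases in those higher in males, with 3 exons in both. At 72 h, 23.4% of those higher in females were on unplaced sequence, against 8.02% of those higher in males and 14.2% of those not called.

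A protein-coding gene lay on the same sequence for 799 of the 923, at a median gap of 4367 bases. The gap between a protein-coding gene that overlaps no other gene and its own nearest one had a median of 562 bases (6040 genes). The gap was up to 1 kb for 196 members, over 1 to 5 kb for 226, over 5 to 20 kb for 208 and over 20 kb for 169. The 2 genes faced apart (divergent) in 279 pairs, or 34.9%, where 29.4% of the protein-coding pairs did, and the median gap of these was 1865 bases. They faced each other (convergent) in 186, and the member lay upstream on the same strand in 204 and downstream in 130. Because neighbours can share, the 799 members had 618 distinct nearest genes.

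At 48 h a member and its nearest gene more often differed between the sexes in the same direction than in opposite directions. Both genes were tested in 369 pairs and both were called in 189, of which 137 went the same way and 52 went opposite ways. The share going the same way was 72.5% (95% exact binomial interval 65.5 to 78.7), against 63.6% (61.2 to 65.9) of 1614 such pairs of a protein-coding gene and its nearest. Up to 1 kb it was 82.98% (69.2 to 92.4) of 47 pairs, and beyond 20 kb 64.0% (42.5 to 82.0) of 25. In protein-coding pairs up to 1 kb it was 62.8% (59.9 to 65.7) of 1068. The excess of members depended on the definition of the pair. Members at least 1 kb from every other gene gave 66.4% of 107 pairs, and the nearest gene by start sites 66.7% of 186. The remaining alternatives gave 69.0% to 76.5%. The intervals treat pairs as independent, which pairs with a shared neighbour or region are not, and no test of the difference was made.

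**Figure D5:**
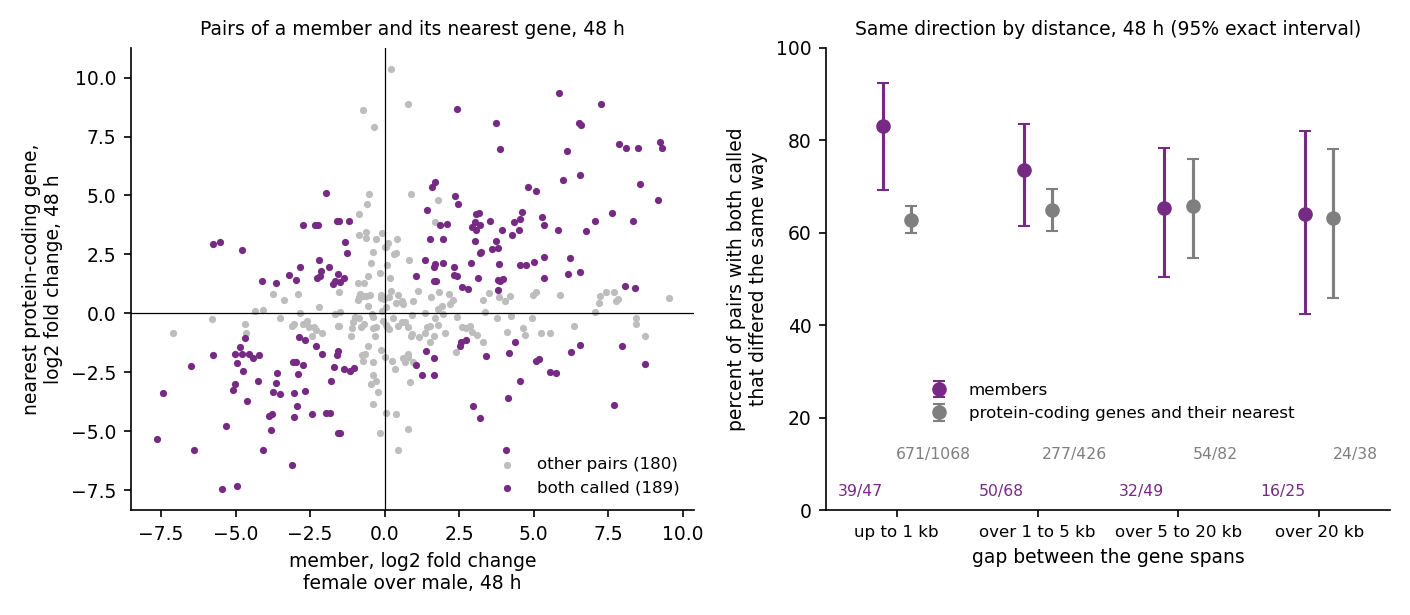
Left, log2 fold change of females over males at 48 h for 369 intergenic lncRNA genes (horizontal axis) and the nearest protein-coding gene of each (vertical axis), with the 189 pairs in which both were called in purple. Right, percent of the pairs with both called that differed in the same direction, by the gap between the spans, for the lncRNA genes (purple) and for protein-coding genes and their nearest (grey), with 95% exact binomial intervals and the counts; the lncRNA values go down from 82.98% up to 1 kb to 64.0% beyond 20 kb.

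The other comparisons gave shares between 64.9% and 90.0%. At 72 h both genes were called between the sexes in 188 pairs, 122 in the same direction, or 64.9% (57.6 to 71.7), against 63.2% of the protein-coding pairs. From 24 to 48 h in females 151 of 210 pairs went the same way, or 71.9% (65.3 to 77.9), against 63.1%, and from 48 to 72 h 84 of 103, or 81.6% (72.7 to 88.5), against 73.6%. In males 15 of 23 pairs went the same way from 24 to 48 h, or 65.2% (42.7 to 83.6), against 68.0%, and 54 of 60 from 48 to 72 h, or 90.0% (79.5 to 96.2), against 78.3%. Total counts in place of TMM gave 75.4% for this last share. Its 54 pairs were 46 joint rises and 8 joint falls, where the protein-coding pairs had 129 and 134. Where rises prevail, more pairs go the same way without any link between neighbours. The 90.0% and the 78.3% thus cannot be compared directly, and the excess of rises in males depends on the scaling. For females from 24 to 48 h the nearest gene by start sites gave 66.7% of 204 pairs. Members at least 1 kb from every other gene gave 66.9% of 118 in that step, and the remaining alternatives 70.9% to 75.6%. From 48 to 72 h such members gave 74.1% of 58 pairs in females and 94.3% of 35 in males.

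Ks-1 and its neighbour were 1 of the 3 pairs named for a joint difference in the same direction at 48 h, ranked by the smaller of the 2 changes. The neighbour, LOC412948, encodes a protein like delta-1-pyrroline-5-carboxylate synthase, an enzyme of proline synthesis, 10134 bases away and facing apart. It had 40.5, 70.9 and 89.6 CPM in 48 h females and 0, 0 and 0.474 CPM in 48 h males (lowest, median and highest). With 3 counts over those 6 males the ratio was 840 (95% counting interval 288 to 4075), and both genes were high in 48 h females and lower in 72 h females. A second member beside the same gene took another course at 72 h. LOC102656912, with 2 exons, 93 bases from LOC412948 and facing apart (linkage group 1, 16660314 to 16661626), had 0.370, 0.519 and 0.689 CPM in 72 h females and 10.7, 15.3 and 29.9 CPM in 72 h males. Its log2 difference of -4.96 (SE 0.41, adjusted p = 2.76e-14) was opposite to that of LOC412948, which had 2 counts over the 6 males and a ratio of 58.2 (95% counting interval 16.1 to 481).

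The other 2 lay on unplaced sequence. LOC102653844 is 3856 bases from LOC100576243, which encodes a SETMAR-like protein, a histone methyltransferase joined to a transposase in other animals. LOC100576243 had 1.47 to 4.22 CPM in 48 h females, while the 48 h males had no count. LOC100577929 had 3.38, 4.102 and 4.95 CPM in 48 h females and no count in males, an excess of at least 4.91-fold, and its neighbour LOC102654684 had 1.23 to 3.82 CPM in those females and no count in those males. These 2 pairs were at low levels, with 23 to 39 counts per 48 h female on LOC100577929.

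At 72 h the pairs of the same direction with the largest smaller change held genes lost from females and a muscle gene. LOC102653970 and LOC100577041, 28361 bases apart, were both lower in females, by -11.62 and -9.13 on the log2 scale (SE 0.26 and adjusted p = 1.70e-29 for LOC100577041). LOC102654602, with 3 exons on linkage group 10 (9043931 to 9045187), and LOC726470, which encodes a transporter of organic anions, were 3775 bases apart and facing apart. LOC102654602 had 0, 0.0462 and 0.250 CPM in 72 h females and 7.36, 21.2 and 40.1 CPM in 72 h males, and its neighbour had 0.118 to 0.462 CPM in females and 34.3 to 49.0 in males. LOC102655302, with 3 exons on linkage group 8 (9794382 to 9796682), lies 3940 bases from Mp20, a muscle protein, which had 125 to 239 CPM in 72 h females and 0 to 4.45 CPM in 72 h males. LOC102655302 itself had 1.12, 3.79 and 5.08 CPM in 72 h females, while the 72 h males had no count.

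Of the 52 pairs that went opposite ways at 48 h, 25 had the member higher in females and 27 the neighbour, and the 3 named pairs were of the first kind. LOC102654304 is 1158 bases from LOC100577526 and faces away from it, and at 48 h the neighbour had 10.9, 12.03 and 17.4 CPM in females and 92.0, 199 and 261 CPM in males (log2 difference -3.90, SE 0.18, adjusted p = 4.54e-22). LOC100577286, with 5 exons on linkage group 6 (16809935 to 16811616), had 1.92, 3.59 and 6.30 CPM in 48 h females and 0, 0 and 0.645 CPM in 48 h males (log2 difference 4.05, SE 0.72, adjusted p = 2.74e-06). Its neighbour tj, the homolog of the fly transcription factor traffic jam, had 0 to 1.35 CPM in those females and 40.8 to 62.8 CPM in those males. LOC102655149, with 3 exons on linkage group 5 (12251285 to 12252615), had 0.315, 1.93 and 2.48 CPM in 48 h females and 2 counts over the 6 males, a ratio of 29.03 (95% counting interval 8.04 to 240). Its neighbour nAChRa3, a subunit of the nicotinic acetylcholine receptor, had 2.04 to 7.41 CPM in females and 29.7 to 53.0 CPM in males.

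At 72 h the opposite pairs included LOC102654512 and LOC102655140 as well as LOC102656912. LOC102654512, of 2 exons and unplaced, had 4.26, 4.94 and 7.67 CPM in 72 h females, while the 72 h males had no count, a difference of at least 1.68-fold at that depth. Its neighbour LOC102654683, 2776 bases away, encodes a protein like farnesyl pyrophosphate synthase, an enzyme of the isoprenoid pathway, and had 8.12 to 26.1 CPM in 72 h females and 573 to 1052 CPM in 72 h males. LOC102655140, with 2 exons on linkage group 1 (10122457 to 10137680), had 0.375, 0.807 and 0.983 CPM in 72 h females and 4.62, 28.3 and 56.2 CPM in 72 h males (log2 difference -5.30, SE 0.57, adjusted p = 4.98e-11). Its neighbour LOC102655249, 20384 bases away, had 3.61 to 9.34 CPM in those females and 0 to 0.890 CPM in those males.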

How the data were processed

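RNA of 36 single embryos was amplified as cDNA with a SMART-Seq v4 kit and T7 transcription and sequenced. Per the labels and the study's methods the reads were demultiplexed with bcl2fastq 2.16.0.10 and aligned with TopHat2 to the Amel_4.5 genome; the counting tool and whether it used strand are not given in the sources used here. The authors deposited counts per gene, not normalised, and RPKM values for the same genes. The total behind RPKM was recovered from the ratio of deposited counts to RPKM in genes with an RPKM over 20, with a tolerance of 1%. Gene classes, spans and nearest genes came from the deposited annotation, whose coordinates are printed.

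Counts of the 36 embryos were fitted jointly with edgeR 4.0.16 in R 4.3.3 (quasi-likelihood test, TMM, filterByExpr with a minimum count of 10, 6 groups of sex and time with queen as a term), and the Benjamini-Hochberg adjustment ran over 9575 genes. Standard errors were computed from the fold change and the F statistic. In a comparison of 2 groups, a value against a group without counts was set against a floor of 3 counts per library, and a printed ratio against 1 to 3 counts carries an exact 95% interval for counting error only; amplified reads are not independent molecules. The script was tested on simulated data before use. Per-embryo shares were compared with exact permutation tests (scipy 1.17.1). DESeq2 1.42.0, other scalings, no filter, an unadjusted p under 0.01, each queen alone, each embryo left out, other definitions of the nearest gene and members at least 1 kb from other genes were alternatives. A 0 count says only that no read was counted at that depth.

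Genes were named by rule: those called with the largest changes, with the same sign in each queen, no overlap of the 6 and 6 embryos and a mean of at least 10 CPM in the higher set; the 5 highest by mean RPKM; those with a symbol; and, at 48 and 72 h, the 3 pairs with the nearest gene that moved most in the same and in opposite directions. LOC727210, LOC100578473, LOC100577405 and LOC100578681 were named for their product lines only. The members and lists were chosen with earlier results of these data known. Sequences and promoter motifs were not analysed here.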

Additional observations from a re-analysis of the deposited data

Results flagged for a closer look

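Among the named members, 62 groups of 6 embryos were checked for a single embryo far from the rest, and 5 had one, where chance alone gives one in about 1 of 20 groups. The groups share embryos and are not independent, so no excess is read from the 5. LOC100576535 had 36.6 CPM in embryo 6 of queen 1 among the 48 h males, the embryo that also had a low share of counts on intergenic lncRNAs. LOC102654304 had 37.98 CPM in embryo 30 of queen 2 among the 48 h females. Embryo 15 of queen 1 was the one apart among the 72 h females for LOC102655235 (1.42 CPM) and LOC102654512 (7.67 CPM), and the embryo of that number among the 48 h females for LOC102655149 (0.315 CPM).

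For 13 named members the step over time for which they were named differed between the sexes by the interaction test of edgeR. From 24 to 48 h the change was more upward in females for LOC102654304 (log2 difference of the changes 9.22, SE 2.22, adjusted p = 4.04e-04), Ks-1 (8.50, SE 1.47, adjusted p = 2.66e-06) and LOC102655708 (4.22, SE 0.29, adjusted p = 3.92e-16). It was more upward in males for LOC100576535 (-8.37, SE 0.35, adjusted p = 4.95e-23), LOC102656795 (-7.47, SE 0.47, adjusted p = 2.63e-16), LOC102653660 (-1.68, SE 0.28, adjusted p = 1.38e-06) and LOC100578173 (-1.86, SE 0.27, adjusted p = 1.11e-07). From 48 to 72 h it was more upward in females for LOC100576378 (2.62, SE 0.33, adjusted p = 1.04e-08) and LOC727450 (1.60, SE 0.28, adjusted p = 5.78e-06). It was more upward in males for LOC102655235 (-10.72, SE 1.61, adjusted p = 2.82e-06), LOC102654015 (-8.77, SE 1.00, adjusted p = 2.89e-09), Kakusei (-6.51, SE 0.48, adjusted p = 1.00e-14) and LOC100577428 (-1.35, SE 0.55, adjusted p = 0.0332). For LOC102654304, Ks-1, LOC102655235 and LOC102654015 a group of the comparison had 0 to 3 counts over its 6 embryos, so the size of those differences depends on the prior count of the fit and is no bound.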

How the results depend on the processing

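No count of calls changed by over 1.5 times when any 1 embryo was left out, except at 24 h, where 0 to 2 members were higher in females and 1 to 2 in males. At 24 h DESeq2 gave 2 higher in females, queen 1 alone 2 and an unadjusted p under 0.01 gave 5, while for males queen 1 alone gave 2, queen 2 alone 0 and the unadjusted p 5. Without the filter on low counts 300 members were higher in females at 48 h and 406 rose in females from 24 to 48 h. With the total behind RPKM, 327 and 60 were higher in females and males at 72 h, 28 rose and 117 fell in males from 24 to 48 h, 49 rose and 172 fell from 48 to 72 h, and the later interaction was called for 202 and 44. With total counts 44 rose and 55 fell in males from 24 to 48 h, 58 fell from 48 to 72 h, and the share of nearest-gene pairs that moved the same way in that step was 75.4%. DESeq2 gave 21 falls in that step. Queen 1 alone gave 39 rises in males by 48 h, and queen 2 alone 15 falls by 48 h and 87 rises and 19 falls after it.

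Counting only members at least 1 kb from every other gene, fewer genes by construction, gave 117 and 101 higher in females and males at 48 h, 120 and 105 at 72 h, 132 rises and 101 falls and then 97 rises and 52 falls in females, 39 rises by 48 h and then 87 rises and 18 falls in males, and interactions of 76 and 97 and of 51 and 77. The difference in the share of counts at 24 h, females minus males, was -1.67 percentage points in queen 1 and -0.0851 in queen 2, and -1.13 to -0.672 with an embryo left out, where leaving out embryo 35 (female) or embryo 8 (male) of queen 2 took it past the threshold. Without the most abundant member the difference in the share was -0.00329 percentage points at 24 h. It was 0.0416 at 48 h, where the sexes overlapped, and reversed to 0.198 at 72 h. Embryo numbers recur between groups but mark different embryos, since each was sequenced whole. For males 4 and 6 of queen 1 the fit of 48 to 72 h with the number as a replicate block gave 21 rises and 5 falls, and without the block 0 and 0. The cause of these shifts was not tested. The shallow 72 h males limit what a count of 0 shows there to levels above 3.11 CPM.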
